A study of Mus musculus with 8 samples.

Results

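Kit marks progenitors and Cx3cr1 marks the macrophage precursors that follow them, so the wells that hold transcripts of both are of interest. Within 4 libraries of A1 and A2 cells from the mouse yolk sac, 141 wells held at least 10000 transcripts, among them at least 1 of Cx3cr1 and 1 of Csf1r, of 232 wells of that depth, 768 wells in the 4 libraries and 1536 in the series. They were split by Kit alone, into 40 wells with a Kit transcript (10, 10, 6 and 14 in libraries 1 to 4) and 101 wells without one (31, 28, 16 and 26). Kit, Cx3cr1 and Csf1r chose the wells, so their own values are a description and were left out of every test.

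Kit is the receptor tyrosine kinase for stem cell factor and is carried by erythromyeloid progenitors (EMPs), the progenitors that the yolk sac makes. These give rise to A1 cells, which still carry Kit, and then to A2 cells, which lose Kit and gain Cx3cr1, the receptor of the chemokine fractalkine, before they settle in the embryo as macrophages. Csf1r is the receptor of the macrophage growth factors Csf1 and Il34.

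The embryos were wild type, of strain C57BL/6N, untreated and taken at embryonic day 9.5, the tissue was the extraembryonic part of the yolk sac, and all libraries carry the same batch label. Cells positive for CD45, a surface protein of blood cells, were sorted into plates and measured by mCEL-Seq2, which counts the 3' ends of transcripts with molecular identifiers. A1 and A2 cells share their libraries and carry no label per well, and 4 further libraries of EMP cells are used only as a side value. Nothing in the labels says whether the libraries came from separate embryos. Classes were compared within libraries, so p-values measure how far their difference varies between the libraries that entered a test. That spread may be technical.

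The 141 wells held between 11489 and 153203 transcripts, with medians of 53210 in wells with Kit and 49473 in wells without. The lowest total kept was 11489 and the highest left out was 8776. There were 27 wells with Cx3cr1 and Csf1r under the minimum, 3 of them with Kit. Of the wells kept, 22 held a single Cx3cr1 transcript and 7 a single Csf1r transcript. Cx3cr1 stood at 205, 128, 169.8 and 188 transcripts per 1000000 (CPM) in the wells without Kit and at 169.7, 228, 69.6 and 80.1 CPM in those with Kit, in libraries 1 to 4. Csf1r stood at 320.1, 242, 286 and 269 CPM and 204, 335, 163 and 237 CPM. The classes overlapped for both genes. Ptprc, which encodes CD45, was found in 130 of the 141 wells, and Spi1, the macrophage transcription factor PU.1, was at 97.9 ± 26.7 CPM without Kit and 97.4 ± 11.3 CPM with it (SD, n = 4 libraries).

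Kit was sparse. Of the 40 wells, 25 held 1 Kit transcript, 6 held 2, 4 held 3, 2 held 4, 2 held 8 and 1 held 9. The share of wells with Kit was 24.4%, 26.3%, 27.3% and 35.0% in libraries 1 to 4, or 28.2% ± 4.66 (SD, n = 4). By depth it was 13.8% ± 11.99 in wells under 30000 transcripts, 27.8% ± 7.78 in those up to 60000 and 38.6% ± 12.4 in deeper ones. After each well was thinned at random to 10000 transcripts, 12 of the 141 still showed Kit, a share of 8.54% ± 3.07. Whether a Kit transcript was seen in a well thus depended on the depth of the well.

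**Figure D1:**
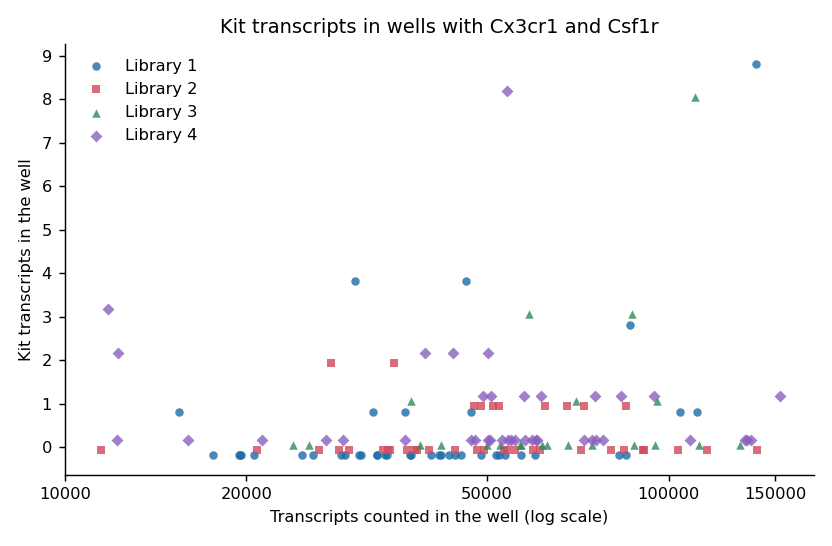
Kit transcripts (vertical axis) against all transcripts counted (horizontal axis, log scale) in each of the 141 wells, by library; points are shifted slightly by library so that they do not cover each other. Most wells with Kit lie at 1 transcript, and the 3 wells with 8 or 9 lie at totals of 54099, 110768 and 139554.

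Free RNA gives transcripts to wells that do not make them, so the same shares were taken in wells rich in yolk sac endoderm. Only 2 wells of at least 10000 transcripts took 5% or more of them from a list of 20 endoderm genes such as Afp and Apoa1, too few to use, and neither held Kit. At a limit of 2%, chosen after the data were seen, there were 48 such wells outside the 141, with a median of 32274 transcripts against 50705 in the 141. Kit was found in 6 of the 48 (12.5%; exact 95% interval 4.73 to 25.2%), Cx3cr1 in 6.25% and Csf1r in 62.5%. Since the 141 were left out, no well of the 48 could hold both Cx3cr1 and Csf1r. The shares of these 2 genes are lowered by that choice and do not measure a background. Thinned to 10000 transcripts, Kit was found in 4.17% of them (0.509 to 14.3%), an interval that holds the 8.54% of the Cx3cr1 wells. The 48 wells also showed Ptprc in 29.2% and Prtn3 in 31.2%, so they are not shown to hold free RNA alone, and how much of Kit in the 141 wells is free RNA was not settled by these shares. Intervals cover counting error only.

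Wells with and without a Kit transcript were then compared over all other genes, to ask what distinguishes Cx3cr1 cells that still show Kit. Transcripts were summed per library and class and tested with library as a block by edgeR's quasi-likelihood test with Benjamini-Hochberg adjustment, whose result is called the adjusted p below. Of 8168 genes tested, 0 passed at 5% (0.0%), and 272 (3.33%) had an unadjusted p under 0.05. DESeq2 also called 0 genes, with 63 at an unadjusted p under 0.05. In simulated counts of the same size the test recovered 70.4% of genes changed 2-fold and 100% of those changed 4-fold, and called 6 unchanged genes. The simulation gave each gene the spread typical of its level and no difference between libraries. Its rates therefore do not hold for genes that vary more, as several named below do. In the real counts, edgeR called 39 genes without library 1, 3 without library 2, 1 without library 3 and 0 without library 4.

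The values below describe the genes with the smallest p, none of which passed. Here and in later paragraphs, a lack of overlap between libraries is a description only. The share of all genes without overlap is not given, and most of the genes named were picked from the same sums. Myb, a transcription factor that definitive progenitors need, stood at 13.1, 10.8, 9.62 and 12.4 CPM in the wells without Kit and at 32.4, 18.2, 69.6 and 40.6 CPM in those with Kit, in libraries 1 to 4. The classes did not overlap, and the log2 fold change was 1.68 ± 0.31 (SE; edgeR adjusted p = 0.218). Dnmt3b, which places new DNA methylation, stood at 129, 141, 106 and 92.7 CPM against 182, 162, 196 and 199.95 CPM, also without overlap (0.66 ± 0.15; edgeR adjusted p = 0.581). Igf1r, the receptor of insulin-like growth factor 1, stood at 60.5, 55.9, 51.01 and 51.01 CPM without Kit. With Kit it stood at 97.2, 67.2, 179 and 95.7 CPM, above every library of the other class (0.92 ± 0.22; edgeR adjusted p = 0.999). Egln3, an oxygen-sensing prolyl hydroxylase named after its value was seen, had 1.76 (edgeR adjusted p = 0.218) at only 7.61 ± 2.78 and 26.4 ± 16.8 CPM.

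Of the other higher genes named by rule, Kif11 and Kif20b, motor proteins of mitosis, had log2 fold changes of 0.55 ± 0.16 and 0.67 ± 0.20, and the mitotic kinase Plk1 0.51 ± 0.15. Rfc2, a DNA replication factor, had 0.59, Srgn, the granule proteoglycan serglycin, 0.64, and Iws1, a transcription elongation factor, 0.53 (edgeR adjusted p = 0.999 for each of these 6). The libraries of both classes did not overlap for Kif11 and Kif20b and overlapped for Plk1, at 84.6 to 129 against 119.6 to 200.5 CPM.

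On the lower side, Hist1h1b, a linker histone, stood at 80.96, 55.3, 60.7 and 51.6 CPM without Kit and 36.99, 25.4, 15.2 and 34.7 CPM with Kit (-1.11 ± 0.23; edgeR adjusted p = 0.264). Plac8, a small protein of myeloid and other cells, stood at 275, 212, 303 and 271 CPM against 176, 173, 174 and 201 CPM (-0.55 ± 0.11; edgeR adjusted p = 0.264). Neither gene overlapped between classes. The transcription factor Ets2 had -0.76, the phosphatase gene Dusp7 -0.56, the lipid enzyme genes Mogat2 and Sgms1 -0.69 and -0.65, Casc4 -0.49 and the glycolytic Tpi1 -0.25 (edgeR adjusted p = 0.999 for each). Over all genes tested, 466 (5.71%) were higher in Kit wells in all 4 libraries and 449 (5.50%) were lower in all 4, so a like direction in 4 libraries is common here.

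Several macrophage genes varied widely between libraries in the wells with Kit, and Mrc1 and Ccl3 also in those without. C1qb and Lpl varied less without Kit, at 391 ± 84.6 and 755 ± 147 CPM. With Kit they were at 265 ± 190 and 670 ± 376 CPM (SD, n = 4 libraries). Mrc1, the mannose receptor, stood at 137, 99.9, 289 and 87.9 CPM without Kit and 38.5, 217, 13.05 and 127 CPM with Kit, so it was lower with Kit in libraries 1 and 3 and higher in libraries 2 and 4 (-0.60 ± 1.03). C1qb, a subunit of the complement protein C1q, stood at 423, 275, 474 and 393 CPM against 179.5, 508, 65.3 and 306 CPM and was higher with Kit only in library 2 (-0.73 ± 0.71). Lpl, lipoprotein lipase, stood at 962, 731, 709 and 617 CPM against 995, 987, 429 and 269 CPM (-0.34 ± 0.35). Ccl3, an inflammatory chemokine, stood at 148, 96.7, 208 and 81.7 CPM against 77.2, 32.7, 17.4 and 44.2 CPM and was lower with Kit in every library (-1.53 ± 0.42). The edgeR adjusted p was 0.999 for each of these 4 genes. Fcgr1, an Fc receptor, had -0.50 ± 0.27, Itgam, the integrin CD11b, -0.022 ± 0.22 and Ptprc -0.13 ± 0.18, and the sign of the latter pair changed between settings.

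The remaining genes of a panel of 22 did not pass the test either. Spi1 had a log2 fold change of 0.0026 ± 0.15 and Irf8, which specifies myeloid cells, 0.012 ± 0.14, and both changed sign between settings. Cd34, a progenitor surface protein, had 0.54 ± 0.18, Runx1 0.33 ± 0.31, Cebpa 0.62 ± 0.43, and the granule enzymes Mpo and Prtn3 1.01 ± 0.55 and 0.74 ± 0.44. The division marker Mki67 had 0.21 ± 0.10 and the replication gene Mcm5 -0.048 ± 0.13, which both changed sign in at least 1 setting. The edgeR adjusted p was 0.999 for each. Adgre1, Cd14, Gata2 and Elane did not pass the filter on low counts. Gata2, a progenitor transcription factor, stood at 2.45, 0, 8.66 and 3.11 CPM without Kit and 9.25, 9.08, 67.6 and 15.5 CPM with Kit, and the high value of library 3 came from wells with more than 1 Kit transcript.

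By list, 0 members were called in any of 22 lists with the filter on low counts. The members that passed it are described here by sign and median. Of 24 progenitor genes 9 passed, all 9 with a positive value (median log2 fold change 0.33, Meis1 0.73 and Etv6 0.53 among them). The filter favours genes that are high in a class: with no filter 18 of 23 were positive, thinned 3 of 4, and without wells with other cell types 7 of 8, with a median of 0.16. With no filter, where genes of very low counts enter, 4 progenitor genes and 1 antigen presentation gene were called higher. There 5 of 12 mesenchyme genes and 1 chemokine gene were called lower. Over all 19129 genes in that setting 14 were called higher and 18 lower. Of 24 macrophage genes 17 passed, 1 positive and 16 negative (median -0.40, with Aif1 at -0.70 and Fcer1g at -0.25). All 16 genes of the G2 and M phases passed, 13 positive (median 0.22, with Top2a at 0.45 and Aurka at 0.37), and all 16 of the S phase passed, 3 positive (median -0.08). Of 20 lysosome genes all passed, 3 positive (median -0.21, with Hexa at -0.47, Ctsz at -0.30 and Lamp1 at -0.21). The lysosome median was -0.044 thinned (4 of 14 positive) and -0.056 without wells with other cell types (6 of 18 positive). Over all genes tested 4087 of 8168 were positive, with a median of 0.00. Genes of the lists vary together, and members that passed are not all members, so these counts are a description.

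Of 22 genes of signalling below Kit 18 passed and 11 were positive, with a median of 0.07. Thinned, 7 passed and all 7 were positive, with a median of 0.22. Over all genes tested in that setting 1413 of 2717 were positive, with a median of 0.0096. With no filter on low counts 12 of 22 signalling genes were positive, with a median of 0.015 against -0.077 over all genes. Stat5b, a transcription factor that cytokine receptors activate, had 0.51, the adaptor Grb2 0.19 and Pik3cg, a lipid kinase of leukocytes, -0.72. Granule genes of early myeloid cells had 10 of 18 tested and 8 positive (median 0.13), myeloid transcription factors 13 of 16 tested and 8 positive (0.01), and ribosome biogenesis genes 18 of 18 tested and 15 positive (0.07). Among chemokine genes 4 of 14 passed, all 4 negative (median -0.21). In the other 12 lists between 1 and 18 members passed.

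RNA of other cells was present in both classes. At least 0.5% of transcripts came from a list of another cell type in 14 of 40 wells with Kit and in 32 of 101 without, and in nearly all of these (14 and 30) the list was endoderm. Of 19 endoderm genes listed in the tables, all 19 had a transcript in wells with Kit and 18 in wells without. Summed per library, the list made up 0.547 to 1.22% of transcripts with Kit and 0.550 to 1.64% without. Without those wells edgeR again called 0 of 6292 genes. In the 39 genes called without library 1, endoderm genes were among the lower ones, with Afp at -0.68 and Trf, transferrin, at -0.64, and Myb (1.81), Dnmt3b and Igf1r among the higher ones. With wells thinned to 10000 transcripts after the classes were set, 0 of 2717 genes were called.

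A single transcript can be missed or picked up by chance, so the 15 wells with at least 2 Kit transcripts (4, 2, 3 and 6 in libraries 1 to 4) were set against the 101 without Kit. This split was set at the start only as an alternative setting of the comparison of wells with and without Kit. Libraries 1, 3 and 4 entered, since a sum needed 3 wells. Of 7253 genes tested, 18 passed (0.248%), 14 higher (0.193%) and 4 lower (0.0551%), with 587 (8.09%) at an unadjusted p under 0.05. Among the higher genes were 4 of a list of progenitor genes and 2 of a list of granule genes, and among the lower ones were 1 macrophage gene and 1 myeloid transcription factor. In simulated counts of the same size, 34.4% of genes changed 2-fold and 87.8% of genes changed 4-fold were recovered. There 7 unchanged genes were called, and the limit of the simulation given above holds here too. The count depended on library 3, without which 1 gene was called (Adgrg1), and was 8 without library 4 and 91 without library 1, with 2 libraries left in each of these fits.

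Adgrg1, an adhesion receptor of blood stem and progenitor cells, showed the largest change of the 18. It stood at 7.36, 10.2, 7.70 and 9.95 CPM in the wells without Kit and at 153, 15.96, 129 and 123 CPM in those with at least 2 Kit transcripts (3.98 ± 0.32; edgeR adjusted p = 5.79e-06). All 4 libraries were above all 4 of the other class, library 2 with a single Adgrg1 transcript among its 2 wells. Myb rose to 63.03, 31.9, 89.8 and 80.3 CPM, against at most 13.1 CPM in any library without Kit (2.69 ± 0.36; edgeR adjusted p = 0.00122). Ikzf2, which encodes the zinc finger factor Helios, stood at 5.72, 1.90, 2.89 and 7.46 CPM and rose to 79.7, 15.96, 93.7 and 33.1 CPM (3.54 ± 0.49; edgeR adjusted p = 0.00259). Angpt1, the growth factor angiopoietin 1, stood at 8.17, 6.35, 2.89 and 3.11 CPM against 36.5, 0, 46.8 and 51.96 CPM (3.23 ± 0.53; edgeR adjusted p = 0.00959), and the library at 0 is the one that did not enter the test.

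Of the granule list, Prtn3 and Mpo rose. Prtn3, a protease of myeloid granules, stood at 159.6, 106, 105 and 125.9 CPM without Kit and 319.5, 191.7, 314 and 232 CPM with at least 2 Kit transcripts, without overlap (1.15 ± 0.18; edgeR adjusted p = 0.00741). Mpo, myeloperoxidase, stood at 31.1 to 42.4 CPM against 47.9 to 206 CPM (1.84 ± 0.31; edgeR adjusted p = 0.0211). Dnmt3b stood at 276, 448, 282 and 294 CPM, above the 92.7 to 141 CPM of the wells without Kit (1.38 ± 0.18; edgeR adjusted p = 0.00122). Igf1r rose by 1.52 ± 0.24 and the kinase gene Pim1 by 1.02 ± 0.18 on the log2 scale. The other 5 higher genes were Tuba8, a tubulin (3.15), Egln3 (2.54), Zfpm1, a partner of Gata factors (2.52), the adhesion receptor gene Adgrg3 (2.51) and Car2, a carbonic anhydrase (2.21). Their edgeR adjusted p ranged from 0.00956 for Car2 to 0.0218 for Egln3.

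Lpl fell from 962, 731, 709 and 617 CPM in wells without Kit to 376, 480.4, 184 and 275 CPM in wells with at least 2 Kit transcripts (-1.48 ± 0.16; edgeR adjusted p = 0.000355). Maf, a transcription factor of macrophages, fell from 407, 411, 543 and 418 CPM to 193, 288, 152 and 165 CPM (-1.41 ± 0.17; edgeR adjusted p = 0.000863). For both genes every library of the Kit wells was below every library without Kit. Sirpa, the myeloid receptor of CD47, fell as well, with libraries between 114 and 169 CPM without Kit and between 42.5 and 112 CPM in these wells (-1.30 ± 0.25; edgeR adjusted p = 0.0292), as did Snx2, a sorting nexin, between 344 and 486 CPM and between 129 and 239 CPM (-1.24 ± 0.20; edgeR adjusted p = 0.0163). Mrc1 had a log2 fold change of -2.35 ± 0.41 (edgeR adjusted p = 0.0757), C1qb -1.45 ± 0.44 (0.559) and Ccl3 -1.69 ± 0.71 (0.727), none of which passed.

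**Figure D2:**
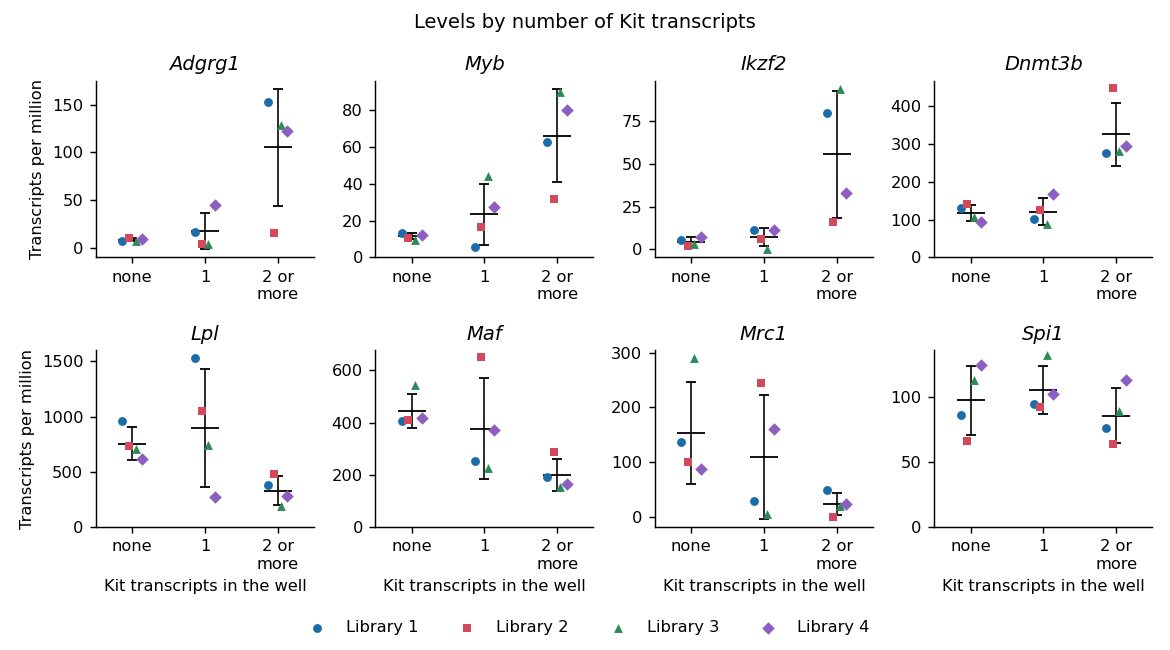
CPM of 8 genes in wells with no, 1, or at least 2 Kit transcripts; each point is a library's sum, the bar is the mean and the error bar the SD (n = 4 libraries). Adgrg1, Myb, Ikzf2 and Dnmt3b have their highest mean and Lpl and Maf their lowest in the wells with at least 2, library 2 lying low for Adgrg1 and Ikzf2, while Mrc1 is spread widely in the other classes and Spi1 overlaps throughout.

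By list, 12 of 24 progenitor genes passed the filter, all 12 positive and 4 called (Adgrg1, Ikzf2, Angpt1 and Myb; median 0.94). Adgrg1, Ikzf2 and Angpt1 stood at no more than 10.2 CPM without Kit, and a gene can pass the filter through the class where it is high. With no filter 18 of 21 were positive (median 0.79) and 6 called higher. In that setting 7 of 23 macrophage genes and 4 of 20 lysosome genes were called lower, and other lists had fewer calls. Over all 17446 genes there 54 were called higher and 85 lower. Of 18 granule genes 10 passed, 7 positive and 2 called (Mpo and Prtn3; median 0.29). Of 24 macrophage genes 16 passed, 15 negative and 1 called (Lpl; median -0.91). Of 16 myeloid transcription factor genes 11 passed, 8 negative and 1 called (Maf; median -0.30). Of the other 18 lists 0 members were called with the filter. Among them the lysosome list had 17 of 19 tested members negative (median -0.60) and the list of G2 and M phase genes 13 of 16 positive (median 0.38, with Plk1 at 0.92 and Top2a at 0.70). The endoderm list likewise had 17 of 18 tested members negative (median -0.57). Without wells with other cell types too few wells with at least 2 Kit transcripts were left for a fit. Kit signalling genes had 8 of 16 positive (median -0.01). Over all genes tested 3625 of 7253 were positive, with a median of 0.00.

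**Figure D3:**
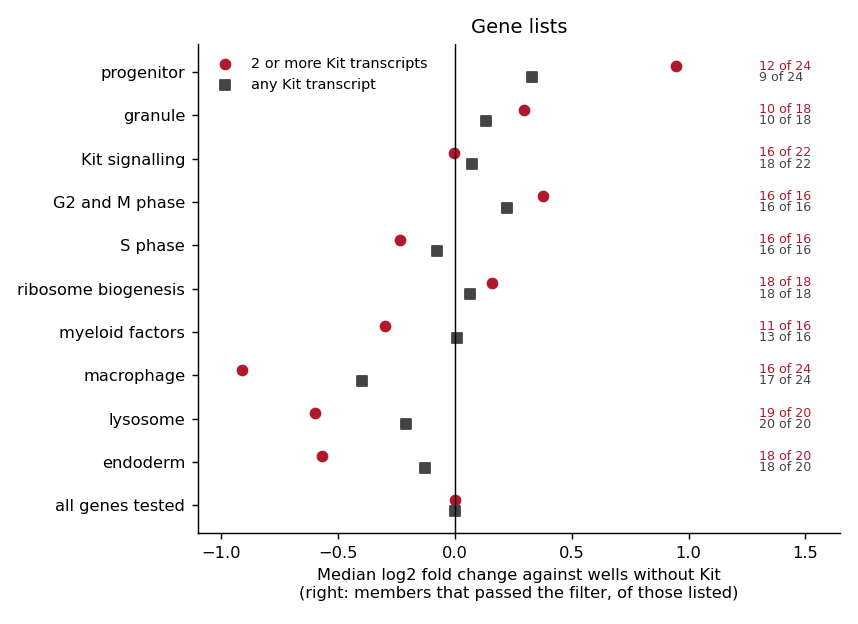
Median log2 fold change of the tested members of 10 lists and of all genes tested, against wells without Kit, for wells with any Kit transcript (squares) and with at least 2 (circles); the numbers on the right give members tested of members listed. Progenitor genes lie at 0.33 and 0.94, macrophage genes at -0.40 and -0.91, and all genes at 0.00.

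Few wells carried these sums. A well of library 1 with 139554 transcripts and 9 Kit transcripts held 43 of the 106 Adgrg1, 18 of the 61 Myb and 22 of the 56 Ikzf2 transcripts of the 15 wells. A well of library 3 with 110768 transcripts and 8 Kit transcripts held another 28, 9 and 9. Both also drew over 1% of their transcripts from the endoderm list (1.19% and 1.09%). Of the 15 wells, 10 held at least 2 of Adgrg1, Myb, Ikzf2 and Angpt1 and 2 held none. Their Cx3cr1 counts ran from 1 to 15 with a median of 2, against medians of 6 in wells without Kit and 8 in wells with 1 Kit transcript.

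With the deepest of these wells in each library left out and, so that libraries could still enter, a minimum of 2 wells per sum, 10 of 6899 genes were called, 1 higher and 9 lower, and 2 of the 18 remained, Maf (-1.38; edgeR adjusted p = 0.00905) and Snx2 (-1.19; 0.0225). The minimum of 2 wells alone, with all wells kept, gave 17 called genes, 14 of them among the 18. Mrc1 (-2.75; edgeR adjusted p = 0.00905), C1qb (-1.89; 0.00905) and Ccl3 (-3.40; 0.0446) were then among the lower genes. Adgrg1 had 2.76 (edgeR adjusted p = 0.081) and Lpl -1.84 (0.402), and Myb, Ikzf2 and Angpt1 no longer passed the filter. With wells thinned to 10000 transcripts 1 of 1986 genes was called, Lpl (-1.75; edgeR adjusted p = 0.00316), and only 7 of the 18 were tested. Every one of the 18 that was tested kept its sign in each of these settings and without each library, with 12 tested without the deepest wells. The 18 were chosen by their change in these same wells, so kept signs were likely in advance and are a description only. The endoderm list made up 0.105 to 0.754% of transcripts per library in the 15 wells, against 0.550 to 1.64% in the wells without Kit, and its part in the result was not tested.

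The same genes can be counted by well. Adgrg1 was found in 31 of 101 wells without Kit, 12 of 25 wells with 1 Kit transcript and 11 of 15 wells with more. After thinning to 10000 transcripts it was found in 12, 5 and 6 of these wells. Angpt1 was found in 22, 5 and 8 wells, and after thinning in 4, 1 and 6. Myb was found in 12 of 101, 6 of 25 and 7 of 15 wells after thinning. As background, the 48 wells rich in endoderm showed Adgrg1 in 31.2%, Angpt1 in 4.17% and Myb in 2.08% of wells, and in 14.6%, 0.0% and 0.0% after thinning, where 0 of 48 has an exact 95% upper limit of 7.40% (6.25% by 3 counts). The share of wells without Kit that showed Adgrg1 was thus close to that in these background wells. It was higher than there for Angpt1 before thinning (22 of 101 against 4.17%) and for Myb after thinning (12 of 101 against 0.0%). After thinning Angpt1 was in 4 of 101, under the upper limit of 7.40%. Before thinning the depths differ, with medians of 49473 and 32274 transcripts, and 6 of the 48 wells held Kit.

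Between wells with exactly 1 Kit transcript and wells without Kit, edgeR called 0 of 7785 genes (0.0%), with 157 (2.02%) at an unadjusted p under 0.05, in a comparison added after the data were seen. Dnmt3b had a log2 fold change of 0.082 ± 0.20 and Lpl of 0.060 ± 0.41, while Myb had 0.88 ± 0.44. Adgrg1 stood at 17.3, 4.10, 4.91 and 44.8 CPM in these wells, high only in library 4. The direct test between wells with at least 2 and with exactly 1 Kit transcript, also added, called 1 of 4557 genes (0.0219%, with 6.28% at an unadjusted p under 0.05), Mt2, a metallothionein, which was lower with more Kit (-2.51 ± 0.30; edgeR adjusted p = 0.0273). Adgrg1 (2.41 ± 0.43; edgeR adjusted p = 0.202), Angpt1 (3.10 ± 0.62; 0.218), Dnmt3b (1.21 ± 0.22; 0.172) and Maf (-0.76 ± 0.21; 0.463) did not pass. That wells with 1 and with more Kit transcripts differ in these genes was therefore not shown. The call of Mt2 was lost without library 1, where 0 genes were called, and the count was 21 without library 4 and 2 without library 3. In the direct test all 18 tested endoderm genes were lower with more Kit (median -1.01), against 2302 of 4557 over all genes. The part of endoderm RNA in the call of Mt2 was not tested.

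**Figure D4:**
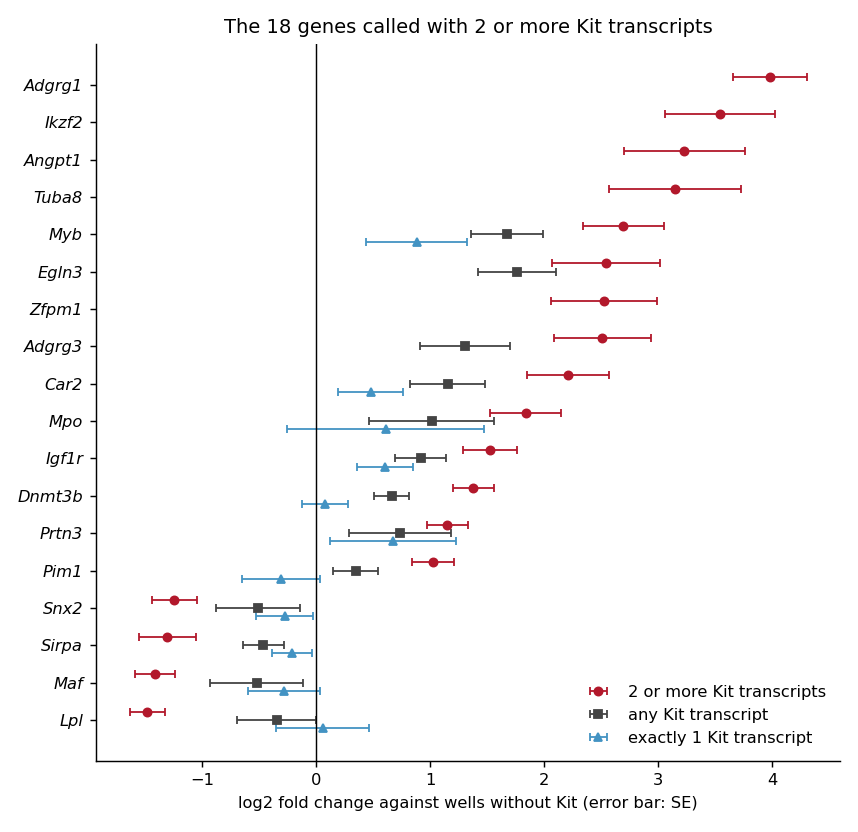
Log2 fold change and SE against wells without Kit of the 18 genes called with at least 2 Kit transcripts (circles), with any Kit transcript (squares) and with exactly 1 (triangles); a missing point is a gene that did not pass the filter on low counts in that comparison. The 18 were chosen by the circles; Dnmt3b lies at 1.38, 0.66 and 0.082, and Lpl at -1.48, -0.34 and 0.060.

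The 40 Kit wells were also compared with 17 wells of the same libraries that held Kit and no Cx3cr1 transcript (2, 6, 5 and 4 wells). The 17 are not shown to be A1 cells. Among these 17 are all 6 wells with Kit of the 48 endoderm-rich wells above. Libraries 2 to 4 entered. Of 5833 genes, 535 were called (9.17%), 223 higher (3.82%) and 312 lower (5.35%) in the wells with Cx3cr1 and Csf1r. DESeq2 called 172, and thinned wells gave 35 of 886 genes in one random draw and 2 in another. Csf1r was part of the choice on 1 side only, so what goes with Cx3cr1 and what goes with Csf1r cannot be told apart.

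Among the genes higher in the Kit wells with Cx3cr1 were Spi1, Irf8 and Ptprc. Spi1 stood at 86.4, 89.1, 109 and 105 CPM, against 55.03, 16.4, 8.70 and 18.9 CPM in the wells without Cx3cr1 (2.67 ± 0.40; edgeR adjusted p = 0.00142). Irf8 stood at 179, 156, 247 and 214 CPM against 0, 23.00, 17.4 and 63.1 CPM (2.59 ± 0.37; edgeR adjusted p = 0.0016), and Ptprc at 66.3, 115, 84.9 and 117 CPM against 55.03, 19.7, 20.3 and 25.2 CPM (2.09 ± 0.35; edgeR adjusted p = 0.0022). For Spi1, Irf8 and Ptprc the libraries did not overlap. Cd34 rose by 2.03, Prtn3 by 2.30 and Itgam by 2.05 on the log2 scale. Lpl (3.28 ± 0.65; edgeR adjusted p = 0.076), Myb (0.80 ± 0.47; 0.333) and Adgrg1 (0.066 ± 0.49; 0.957) did not pass, and Adgrg1 changed sign between settings.

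The 10 higher genes with the largest changes were Hp (haptoglobin, 3.31), Il6ra (the interleukin 6 receptor, 3.26), Gbp7 (an interferon-induced GTPase, 3.09), Trim30a (2.97), St6galnac4 (a sialyltransferase, 2.94), Gas7 (2.93), Rgs2 (a regulator of G protein signalling, 2.93), Kctd12 (2.86), Lsp1 (a leukocyte actin-binding protein, 2.74) and Rab32 (2.69). The 10 lower ones were Plod2 (a collagen-modifying enzyme, -3.59), Pth1r (the parathyroid hormone receptor, -3.00), Tinagl1 (-2.97), Timp3 (a metalloprotease inhibitor, -2.93), Epas1 (a hypoxia-inducible factor, -2.86), Aqp8 (a water channel, -2.82), Gata1 (the erythroid transcription factor, -2.75), Bcar1 (-2.61), Mfge8 (-2.41) and Creb3l1 (-2.36). By list, 18 of 18 tested endoderm genes and 6 of 6 tested erythroid genes were negative, with 6 and 2 called lower, against 2965 of 5833 negative and 5.35% called lower over all genes. Of the tested ribosome biogenesis genes 18 of 18 were positive and 7 called, and of 10 tested macrophage genes 8 were positive, with 3 called higher and 1 lower, against 2868 of 5833 positive and 3.82% called higher over all genes.

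RNA of other cells moved with this difference. Of the 17 wells without Cx3cr1, 12 drew at least 0.5% of their transcripts from a list of another cell type, 11 from endoderm and 5 from erythroid genes, against 14 of the 40. The endoderm list made up 1.76% ± 0.648 of their transcripts against 0.954% ± 0.291 (SD, n = 4 libraries), and the erythroid list 1.33% ± 2.05 against 0.0801% ± 0.0679. Without those wells too few were left in each library for a fit. The part of this RNA in the 535 calls was not tested.

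**Figure D5:**
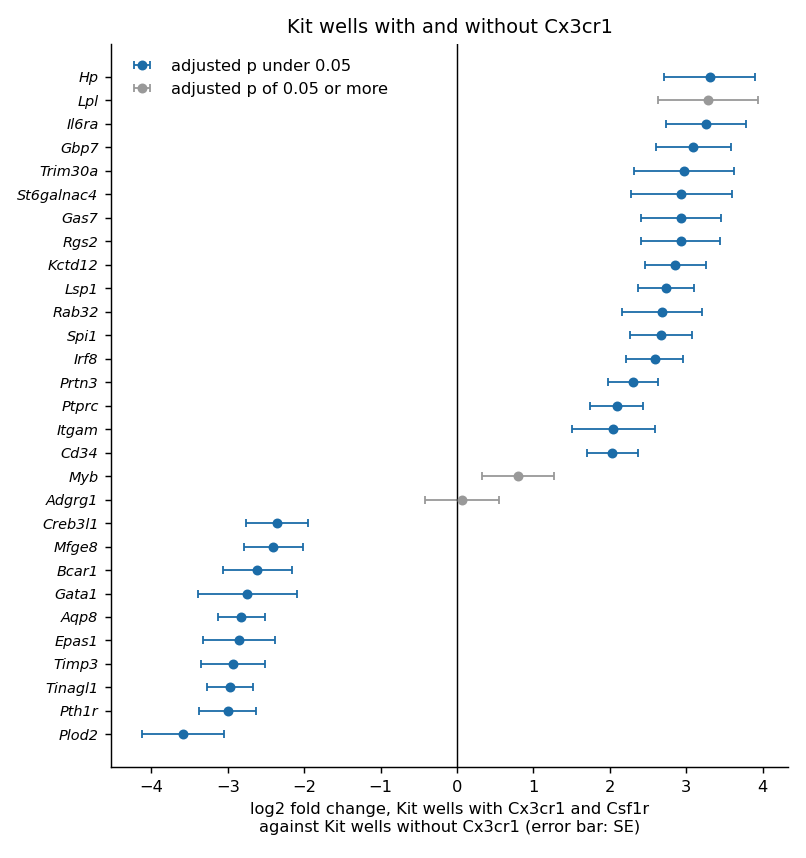
Log2 fold change and SE in Kit wells with Cx3cr1 and Csf1r against Kit wells without Cx3cr1, for the 20 genes named by rule and 9 further genes; blue genes passed at an adjusted p of 0.05 and grey ones did not. Spi1 lies at 2.67 and Adgrg1, near no difference, at 0.066.

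In the EMP libraries, wells with Cx3cr1 and Csf1r were rare and mostly held Kit. There were 20 among 436 wells of at least 10000 transcripts, and 18 of them had Kit (90.0%; exact 95% interval 68.3 to 98.8%), against 40 of 141 (28.4%; 21.1 to 36.6%) in the A1/A2 libraries. Adgrg1 was found in 17 of those 18 wells. Over all wells of that depth, 255 of 436 held Kit in the EMP libraries. In the A1/A2 libraries the 40 and the 17 wells above did, of 232. By EMP library the share was 66.7 to 100%, from 3 to 6 wells each. The EMP wells with Cx3cr1, Csf1r and Kit were deep, with a median of 62589 transcripts. The median was 53210 in the 40 wells and 31197 in all EMP wells with Kit. The intervals cover counting error only and treat wells of 4 libraries as independent. The sorts differ, so the shares of both were not tested against each other. Over all 255 Kit wells of the EMP libraries, Adgrg1 stood at 115 ± 26.5 CPM, Myb at 46.9 ± 15.4 CPM, Prtn3 at 41.9 ± 6.49 CPM, Lpl at 42.2 ± 41.2 CPM and Spi1 at 22.6 ± 6.45 CPM (SD, n = 4 libraries). The 15 wells with at least 2 Kit transcripts stood at 105 ± 60.9, 66.3 ± 25.4, 264 ± 62.7, 329 ± 128 and 85.8 ± 21.2 CPM in the same order. These values are set side by side and were not tested, since the sorts differ.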

How the data were processed

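Tables of estimated counts were deposited by the authors, 1 per library, with genes by wells and no scaling for depth. They are identifier counts corrected for collisions: with the correction for 4096 identifiers taken back, 100% were whole (tolerance 1e-06). BWA 0.6.2-r126 and Seurat are named, without a role, per the submitters' processing notes. Build, annotation, strand rule and the treatment of reads shared by near-identical copies (which bears on Hist1h1b, Gbp7 and Trim30a) were not given in the sources used here. The values of the 141 wells are identical in the deposited table of the series. No doublet caller was run, and no 2 wells held identical values.

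Wells, gene lists and panel were chosen with earlier results of these data known. Counts were summed per library and class, rounded, and tested with edgeR 4.0.16 (R 4.3.3; TMM, filterByExpr, robust quasi-likelihood fit, library as block, at least 3 wells per sum) without Kit, Cx3cr1 and Csf1r, at a Benjamini-Hochberg adjusted p of 0.05. The block pairs classes that are wells of 1 library. SE is the absolute log2 fold change over the square root of F. CPM are transcripts per 1000000 of the summed wells. The fit was tested on simulated data. Named genes were up to 10 per direction with the largest change among those called, or the 8 with the smallest p where fewer than 5 passed, at a mean of at least 50 CPM, plus the panel of 22 (1 of which is not reported here) and up to 4 genes per list. Genes called with at least 2 Kit transcripts were all named. Alternatives covered normalization, filter, block, DESeq2 1.42.0, depth, classes, wells and single libraries. The class with at least 2 Kit transcripts was set at the start as an alternative setting only, not as a comparison of its own. Its alternatives, the comparisons of wells with exactly 1 Kit transcript and the 2% limit were added after the data were seen.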

Additional observations from a re-analysis of the deposited data

Results flagged for a closer look

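In 4 of 114 groups of 4 libraries behind the genes named, 1 library stood far from the other 3. This was judged by its gap to the nearest library over the whole range, and chance marks about 1 in 20 groups, more than were found here. Fcer1g, a signalling chain of Fc receptors, was at 328 CPM in the Kit wells of library 2, against 256 to 261 in the others. Grb2 was at 161 CPM in the Kit wells of library 1, against 211 to 220. Maf was at 543 CPM in the wells without Kit of library 3, against 407 to 418. Plac8 was at 201 CPM in the Kit wells of library 4, against 173 to 176.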

How the results depend on the processing

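The comparison of wells with and without Kit called 32 genes with no filter on low counts (among them Myb, Dnmt3b, Igf1r, Ccl3, Hist1h1b, Plac8 and Ets2), 1 in a second random thinning, 18 with at least 2 Kit transcripts and 0 to 39 without single libraries; the other settings gave 0. Wells with at least 2 Kit transcripts against none gave 139 with no filter, 1 and 3 in both thinnings, 10 without the deepest wells at a minimum of 2 wells per sum (17 at that minimum alone), 23 without the well of library 4 described under other observations, and 1 to 91 without single libraries. Against wells with 1 they gave 96 with no filter and 0 to 21 without single libraries. Kit wells with against without Cx3cr1 gave 172 with DESeq2, 35 and 2 in both thinnings and 373 to 748 without single libraries. Leaving out the replicate block (no pairing of classes by library) gave 0, 24, 0 and 481 in these 4 comparisons. The share of wells with Kit was 8.54% thinned, 10.9% at 2 transcripts and 5.20% with all 3 rule genes read after thinning, where too few Kit wells were left for a fit.

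Signs changed for genes near 0. Against wells without Kit, values without single libraries ran from -1.31 to 0.11 for Mrc1, -0.20 to 0.14 for Itgam, -0.29 to 0.11 for Ptprc, -0.12 to 0.12 for Spi1, -0.15 to 0.16 for Irf8 and -0.12 to 0.049 for Mcm5. Spi1 was -0.056 with no filter, -0.012 without the replicate block, -0.22 with at least 2 Kit transcripts, -0.14 without wells with other cell types, -0.0024 without the well of library 4 and -0.43 in the second thinning. Irf8 was -0.047 with no filter, -0.016 without that well and -0.0073 with 1 Kit transcript, where Lpl was 0.060. Itgam was 0.012 without wells above 3 times the median total and 0.052 without other cell types. Ptprc was 0.29 thinned and 0.43 thinned without other cell types, where Mki67 was -0.032, Mcm5 0.023 and Lamp1 0.010. In the second thinning Mcm5 was 0.039 and Top2a -0.0042. Between Kit wells with and without Cx3cr1, Adgrg1 was -0.16 with DESeq2, -0.15 at a minimum of 20000 transcripts, -0.084 with at least 5 wells per sum and -0.44 to 0.58 without single libraries. The cause was not tested.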

Other observations

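One well of library 4 stood apart from the other 140. It held 11802 transcripts, of which 3 were Kit, 1 Cx3cr1 and 1 Csf1r, and 277 were Ccl22, 90 Ccl17, 168 Cd74, 37 H2-Ab1 and 25 Ccr7. Ccl17 and Ccl22 are chemokines, Ccr7 a chemokine receptor, and Cd74 and H2-Ab1 belong to antigen presentation by MHC class II; mature dendritic cells are known for all 5. Among the other 140 wells the highest counts were 4 for Ccl22, 2 for Ccl17, 7 for Cd74, 4 for H2-Ab1 and 1 for Ccr7. No Adgrg1, Myb, Ikzf2, Angpt1, Prtn3 or Mpo transcript was found in it. Without this well, wells with at least 2 Kit transcripts against wells without Kit gave 23 called genes, and all 18 of those above were among them. The well was singled out after its values were seen, and what it is was not tested.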
